A study of Homo sapiens with 27 samples.

Results

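The replication-dependent histone genes were examined in RNA-seq libraries of prostate cancer cells depleted of CPSF1, a subunit of the cleavage and polyadenylation specificity factor (CPSF). They were taken as every row of the gene count table whose symbol starts with HIST, a cluster number from 1 to 4 and H, which gave 71 of 20268 protein-coding symbols. Of these, 55 lie in the HIST1 cluster on chromosome 6, 12 in HIST2 and 3 in HIST3 on chromosome 1, and 1, HIST4H4, on chromosome 12. By class they are 6 linker histone H1 genes, 17 H2A, 18 H2B, 15 H3 and 15 H4 genes.

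LNCaP cells are androgen-responsive, LNCaP95 cells were derived from LNCaP cells by long culture without androgen, and 22Rv1 cells grow without androgen. Each line carried 1 of 3 lentiviral constructs, with either a control hairpin (CTRL sh) or a hairpin that targets CPSF1 (CPSF1 sh1 or CPSF1 sh2), with 3 biological replicates per group and 27 libraries in all. Every group, CTRL sh included, therefore held virus and had been selected with puromycin, and the infected populations were expanded, plated at 500000 cells per well and harvested after 72 h in medium with 10% FBS, which for LNCaP95 lacked phenol red. The libraries were made with a stranded mRNA kit that captures poly(A) RNA, and fragments on exons were counted. A change in poly(A)-captured histone RNA and a change in all histone mRNA cannot be told apart in these counts, nor can the share of cells in S phase and the mRNA per cell in bulk RNA.

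Replication-dependent histone genes supply the core and linker histones that package newly made DNA, and their mRNAs accumulate in S phase. Their pre-mRNAs have no introns in the coding region and normally end just after a conserved stem-loop, where a complex that shares CPSF subunits with the poly(A) machinery cuts them without adding a tail. The stem-loop is bound by SLBP, and the U7 small nuclear RNP, which holds LSM10 and LSM11, positions the cut. Some histone genes can also give longer, polyadenylated mRNAs, in particular in cells that have stopped dividing.

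The stem-loops of 9 genes whose levels are given below are shown. The 16 bases of the stem-loop are in capitals and 5 bases on each side in lower case, with the position of the capitals in GRCh37.
HIST1H1C, chr6:26055972-26055987, minus strand: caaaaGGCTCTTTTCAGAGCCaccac
HIST1H2AC, chr6:26124897-26124912, plus strand: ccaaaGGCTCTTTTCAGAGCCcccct
HIST1H2AG, chr6:27101294-27101309, plus strand: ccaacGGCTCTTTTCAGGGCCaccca
HIST3H2A, chr1:228645070-228645085, minus strand: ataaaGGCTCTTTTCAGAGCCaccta
HIST1H2BK, chr6:27114145-27114160, minus strand: ccaaaGGCTCTTTTAAGAGCCactta
HIST2H2BE, chr1:149857738-149857753, minus strand: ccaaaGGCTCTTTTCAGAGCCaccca
HIST1H2BD, chr6:26158815-26158830, plus strand: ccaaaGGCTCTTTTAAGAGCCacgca
HIST1H2AE, chr6:26217645-26217660, plus strand: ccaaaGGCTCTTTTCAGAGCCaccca
HIST1H4H, chr6:26285359-26285374, minus strand: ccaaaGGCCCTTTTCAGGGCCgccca

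The core of the loop was shared between these genes. HIST1H2AG, HIST1H2BK, HIST1H2BD and HIST1H4H differ from the most frequent form, which HIST1H1C, HIST1H2AC, HIST3H2A, HIST2H2BE and HIST1H2AE carry, within the stem or the loop. Of the 71 genes, 68 could be matched to a stop codon in the annotation, the others being HIST1H2BF, HIST1H2BG and HIST1H4F. All 68 had the histone 3′ stem-loop consensus on the coding strand, 22 to 67 bases after the stop codon (median 35). The same search of the 150 bases after the stop codon found it in 2 of 19953 other protein-coding genes (0.01%). It occurred as 10 distinct sequences, the most frequent in 40 genes, and the matched H4 genes carried forms with GGCCC at the start of the stem. The poly(A) signal AATAAA, searched on the coding strand and not overlapping the stem-loop consensus, lay within 500 bases of the stop codon in 13 of the 68 genes (19.1%) against 40.9% of the other genes. A match is a description of the sequence and not a used site.

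Total counts per library ranged from 8515624 to 15904518, with a median of 11058723. CPSF1 itself was lower in the knockdown libraries of each line, from 150.6 ± 1.04 CPM (SD, n = 3) in CTRL sh to 101 ± 7.01 and 91.3 ± 6.22 CPM with the hairpins in LNCaP, from 114 ± 15.5 to 61.3 ± 6.01 and 61.5 ± 2.55 CPM in LNCaP95, and from 184 ± 3.77 to 127 ± 14.5 and 133 ± 7.67 CPM in 22Rv1. The fitted log2 changes were -0.65, -0.89 and -0.50, with adjusted p = 1.68e-07, 1.31e-06 and 9.66e-05 in edgeR's quasi-likelihood test. The luminal prostate genes KLK3 and TMPRSS2 reached at most 57.2 and 49.5 CPM in 22Rv1. Of the 3 basal markers, KRT5 and TP63 were at or below 0.38 CPM in every library, while KRT14 reached 6.29 CPM in LNCaP, 5.76 CPM in LNCaP95 and 0.271 CPM in 22Rv1. The leukocyte marker PTPRC and the fibroblast gene COL1A2 were also at or below 0.38 CPM throughout, and the fibroblast gene COL1A1 was at 10.4 to 72.8 CPM.

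Histone genes contributed few counts, between 708 and 6773 per library over all 71 genes. In LNCaP, the summed histone counts went from 2553 to 2797 in the CTRL sh libraries to 4989 to 6760 in the CPSF1 sh1 and 5663 to 6773 in the CPSF1 sh2 libraries. LNCaP95 libraries held 4804 to 6687 counts in CTRL sh, 4907 to 6438 with CPSF1 sh1 and 4064 to 4793 with CPSF1 sh2. The 22Rv1 libraries held 708 to 945, 1738 to 1755 and 2330 to 2472 counts. Raw counts move with depth, so the levels below are in CPM, the counts of a gene per 1000000 counts of the library size after trimmed mean of M values (TMM) scaling within a line.

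More histone genes had counts after knockdown, on average, in every line. At least 1 count was found for 46 to 54 of the 71 genes in the LNCaP CTRL sh libraries, 53 to 59 with CPSF1 sh1 and 53 to 57 with CPSF1 sh2. In LNCaP95 these numbers were 45 to 51, 51 to 53 and 51 to 56, and in 22Rv1 46 to 49, 48 to 51 and 53 to 58. The ranges overlapped or met those of CTRL sh, except for CPSF1 sh2 in 22Rv1. With each library reduced to the smallest depth, the expected number was 46.9, 55.6 and 53.3 genes for LNCaP, 44.2, 49.0 and 51.6 for LNCaP95 and 45.0, 47.3 and 54.2 for 22Rv1, in the same order of groups. At least 10 counts were reached by a mean of 28.3, 29.7 and 31.7 genes for LNCaP, 26.0, 28.3 and 26.7 for LNCaP95 and 13.3, 23.7 and 26.0 for 22Rv1. The step from CTRL sh to knockdown was widest in 22Rv1 by this measure. Detection was not counted over all genes, so whether this gain is particular to histone genes was not tested. Among all genes with a count that were too low for the fits below, 15.7%, 22.4% and 10.5% had all 6 knockdown libraries above CTRL sh in LNCaP, LNCaP95 and 22Rv1. Only 6.42%, 3.12% and 3.28% had all 6 below it.

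By cluster, HIST1 held most of the detected genes and counts. Between 34 and 45 of its 55 genes had a count in an LNCaP library, 34 to 43 in LNCaP95 and 35 to 44 in 22Rv1. HIST1 counts per library ranged from 1784 to 1989 in LNCaP CTRL sh and from 3345 to 4646 after knockdown, from 3890 to 5434 and from 3210 to 5214 in LNCaP95, and from 406 to 569 and from 1020 to 1495 in 22Rv1. The 12 HIST2 genes gave 528 to 565 counts in LNCaP CTRL sh and 1367 to 1927 after knockdown, 711 to 1024 and 651 to 940 in LNCaP95, and 188 to 216 and 481 to 721 in 22Rv1. The 3 HIST3 genes gave 218 to 229 and 231 to 366 counts in LNCaP, 152 to 229 and 187 to 284 in LNCaP95, and 103 to 151 and 190 to 259 in 22Rv1. The lone HIST4 gene, HIST4H4, an H4 gene, had 11 to 15 and 25 to 38 counts in LNCaP and 9 to 19 and 19 to 38 in 22Rv1. In LNCaP95 HIST4H4 had 0 counts in the CTRL sh libraries and 0 to 2 after knockdown, at or under the limit of 3 counts that a count of 0 allows, so no fold is given.

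No count fell on 4 genes, HIST1H2AA, HIST1H2BA, HIST1H2BI and HIST2H3A, in any of the 27 libraries. A further 8 genes had 1 to 10 counts in all libraries together, and 16 had more than 1000. HIST1H2AA and HIST1H2BA encode testis variants, while HIST2H3A shares 100% of its 75-base windows with another member, so its fragments may be left unassigned. In all, 11 genes shared more than 50% of their 75-base windows with another member, HIST1H2AI with 56.5% being the only one of them that passed the expression filter below in the line fits. HIST1H2AD and HIST1H3D, and HIST1H2AM and HIST1H3J, overlap on the same strand. Counts of these genes are uncertain in how fragments were divided between partners.

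Summed over the 71 genes, histone RNA was higher after CPSF1 knockdown in LNCaP and 22Rv1 and lower in LNCaP95. In LNCaP the sum was 242, 234 and 224 CPM in the CTRL sh, 598, 608 and 565 CPM in the CPSF1 sh1 and 502, 497 and 479.9 CPM in the CPSF1 sh2 libraries. All 6 knockdown libraries lay above the CTRL sh libraries, a ratio of means of 2.32, or 1.21 on the log2 scale. In LNCaP95 it was 484, 449.8 and 471 CPM in the CTRL sh, 394, 408 and 379 CPM in the CPSF1 sh1 and 378, 395 and 372 CPM in the CPSF1 sh2 libraries. Here all 6 knockdown libraries lay below CTRL sh, with a ratio of 0.827 (log2 -0.27). The 22Rv1 sums were 77.9, 79.6 and 74.9 CPM, 161, 165 and 171 CPM and 219, 244 and 229 CPM. All 6 were again above CTRL sh, with a ratio of 2.56 (log2 1.35). No test was run on a sum over members.

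**Figure D1:**
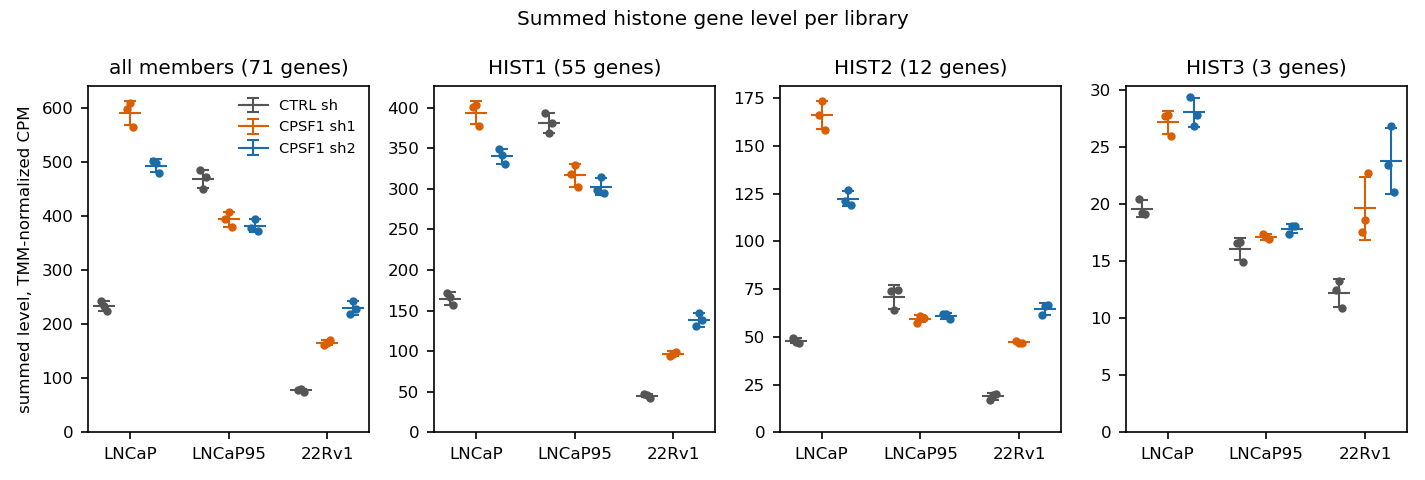
Summed level of the histone genes in every library, in TMM-normalized CPM (vertical axis), for all 71 genes and for the HIST1, HIST2 and HIST3 clusters, with the cell lines along the horizontal axis. Points are libraries, bars are the mean ± SD of 3 replicates, and the sums of all genes after knockdown sit above CTRL sh in LNCaP and 22Rv1 and below it in LNCaP95.

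HIST1 and HIST2 followed the sum in each line. For HIST1, the log2 ratio was 1.16, -0.30 and 1.38 in LNCaP, LNCaP95 and 22Rv1, and for HIST2 it was 1.59, -0.23 and 1.57. Much of the HIST2 value came from 1 gene, HIST2H2BE, without which the ratios were 0.50, 0.47 and 0.56, so that LNCaP95 changed sign. HIST3 was higher in all 3 lines, by 0.49, 0.12 and 0.83, with all 6 knockdown libraries above CTRL sh in each. In LNCaP95 the margin was narrow, 16.9 CPM in the lowest knockdown library against 16.7 CPM in the highest CTRL sh library. HIST3H2A, the HIST3 gene with the most counts, overlapped between the groups there. HIST4H4 was higher by 1.21 in LNCaP and 1.17 in 22Rv1.

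The 5 histone classes differed in size of change but shared its direction within a line. H1 genes were higher by 1.55 in LNCaP and 1.95 in 22Rv1 (log2 ratio of sums) and lower in LNCaP95 at -0.21. For H2A the values were 0.79, 0.81 and -0.12, with overlap between knockdown and CTRL sh libraries in LNCaP95. H2B genes gave 1.35, 1.54 and -0.26. H3 genes, with 0.62, 1.29 and -0.85, showed the lowest LNCaP95 value of the classes. H4 genes gave 1.22, 1.22 and -0.31. Apart from H2A in LNCaP95, no class had a knockdown library inside the CTRL sh range.

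A few genes made up most of the sum. Averaged over lines, HIST2H2BE supplied 19.6% of it, HIST1H1C 15.4%, HIST1H2BK 11.8%, HIST1H4H 11.2%, HIST3H2A 7.25%, HIST1H2AC 6.99% and HIST1H2BD 4.31%, together 76.5%. Their order was not the same in each line. HIST1H4H took 28.6% of the sum in LNCaP95 but 3.53% in LNCaP and 1.33% in 22Rv1, and HIST3H2A took 12% in 22Rv1 against 3.79% in LNCaP95.

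**Figure D2:**
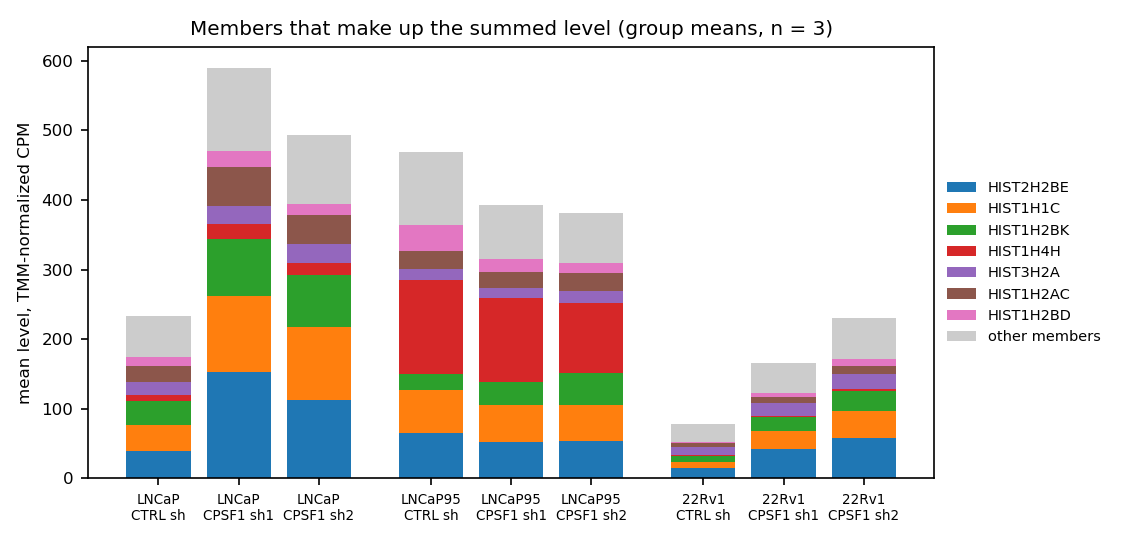
Mean level (TMM-normalized CPM, n = 3) of the 7 genes with the highest share and of all other members, stacked per group. HIST1H4H fills a wide band in the LNCaP95 groups and a thin one in LNCaP and 22Rv1.

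Most members were too low to be tested one by one. The fit of a line used genes that exceeded 2 CPM of the total counts, before TMM scaling, in each of its 9 libraries, which kept 15 of the 71 histone genes in LNCaP, 16 in LNCaP95 and 6 in 22Rv1, holding 90.2%, 92.9% and 71.6% of the summed level. In all, 19 genes were tested in at least 1 line, 6 in all 3 lines and 52 in none. A member had to pass in CTRL sh and knockdown libraries alike, so the filter did not depend on the group in which it was high.

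Of the 15 tested genes in LNCaP, 14 rose and 0 fell at an adjusted p below 0.05, where 31.1% of all tested genes rose and 31.0% fell. The median log2 fold change of the 15 was 0.87, against -0.00036 over all tested genes. Their 3 largest rises were HIST2H2BE at 1.73 ± 0.12 (SE, adjusted p = 2.5e-08), HIST1H1C at 1.55 ± 0.05 (SE, adjusted p = 1.91e-11) and HIST1H4H at 1.33 ± 0.12 (SE, adjusted p = 4.11e-07). HIST1H3E, an H3 gene, was the member that did not pass, at -0.11 ± 0.17 (SE, adjusted p = 0.58). All 6 knockdown libraries lay above all 3 CTRL sh libraries for 13 of the 15 genes and below them for 0, against 27.9% and 27.7% of all tested genes. HIST1H2AG, the smallest rise, lost its call with either hairpin alone, without an expression filter and in DESeq2 (adjusted p = 0.0807), and also without CTRL sh replicate 2 or 3 or CPSF1 sh2 replicate 2 (adjusted p = 0.0557, 0.137 and 0.0588).

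In 22Rv1, all 6 tested genes rose, where 12.7% of all tested genes rose and 14.3% fell. Their median log2 fold change was 1.20, against -0.0024 over all tested genes, and for each of the 6 every knockdown library lay above every CTRL sh library, which held for 13.0% of all tested genes, the reverse holding for 15.2%. The largest rises were HIST1H1C at 1.95 ± 0.20 (SE, adjusted p = 2.07e-05), HIST2H2BE at 1.77 ± 0.15 (SE, adjusted p = 6.18e-06) and HIST1H2BK at 1.32 ± 0.18 (SE, adjusted p = 0.000159).

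LNCaP95 gave both directions. Of 16 tested genes, 2 rose and 9 fell, where 33.2% of all tested genes rose and 33.7% fell, and the median log2 fold change was -0.30 against 0.0013 over all tested genes. HIST1H2BK, at 0.79 ± 0.14 (SE, adjusted p = 0.00035), and HIST2H2BF, at 0.76 ± 0.18 (SE, adjusted p = 0.00264), both H2B genes, were those that rose. The 3 largest falls were HIST1H2BF at -1.52 ± 0.17 (SE, adjusted p = 6.65e-06), HIST1H2AE at -1.33 ± 0.15 (SE, adjusted p = 6.85e-06) and HIST1H2BD at -1.13 ± 0.13 (SE, adjusted p = 1.13e-05). All 6 knockdown libraries were above CTRL sh for 2 and below it for 9 of the 16 genes, against 29.8% and 30.3% of all tested genes. Scaled by library size alone instead of TMM, 4685 genes were called higher and 2850 lower in LNCaP95, against 3694 and 3756 with TMM, and HIST1H1C and HIST1H4H lost their calls (adjusted p = 0.0506 and 0.0622).

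**Figure D3:**
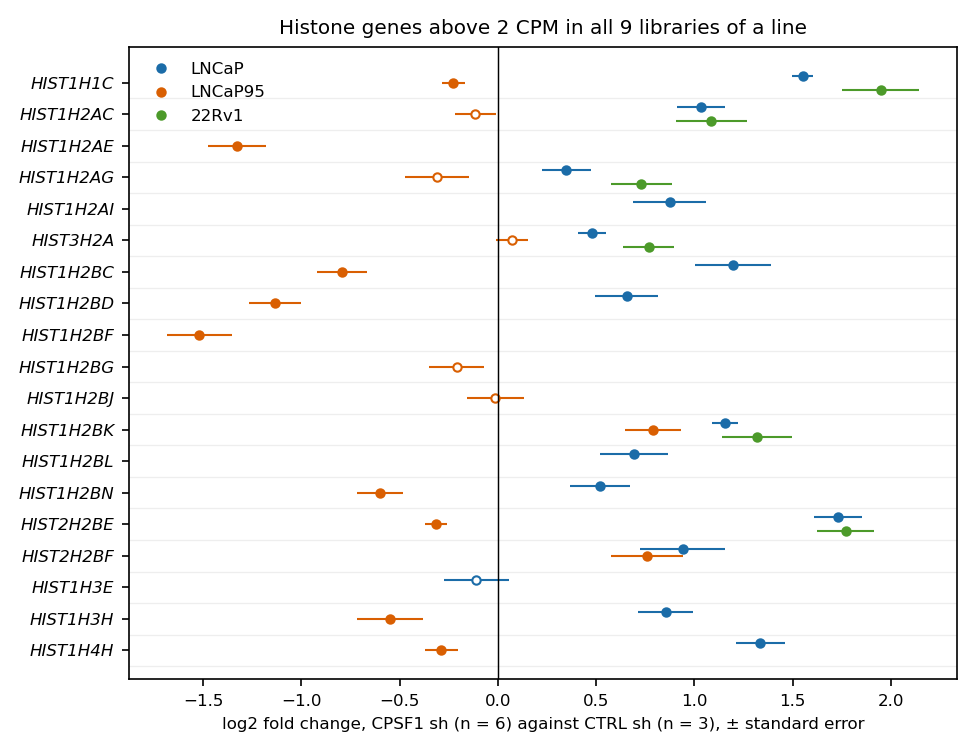
Log2 fold change of CPSF1 sh (n = 6) against CTRL sh (n = 3) with its standard error for the 19 histone genes tested in at least 1 line, ordered by class. Filled points passed an adjusted p below 0.05, and LNCaP and 22Rv1 points lie to the right of 0 except HIST1H3E, while most LNCaP95 points lie to its left.

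Of the 12 genes tested in both LNCaP and LNCaP95, 7 rose in LNCaP and fell in LNCaP95, and 2, HIST1H2BK and HIST2H2BF, rose in both. Of all tested genes, 31.1% rose in LNCaP, while 33.2% rose and 33.7% fell in LNCaP95. The share of all genes with each joint pattern was not computed, so these counts are a description. The members are described below by class, with the level in each library in TMM-normalized CPM and the replicates of a group in the order 1 to 3.

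H1 genes encode the linker histone that sits where DNA enters and leaves the nucleosome. HIST1H1C (chromosome 6, 26055968 to 26056699, minus strand, 1 exon of 732 bases), which encodes H1.2, was the only one of the 6 above the filter. LNCaP libraries held 35.2, 37.9 and 36 CPM in the CTRL sh, 109, 114 and 104 CPM in the CPSF1 sh1 and 108, 106 and 100.04 CPM in the CPSF1 sh2 libraries. The groups did not overlap, and HIST1H1C rose in LNCaP by 1.55 on the log2 scale. LNCaP95 started higher, with 66.2, 58 and 62.8 CPM in the CTRL sh, 55.4, 54.2 and 52.1 CPM in the CPSF1 sh1 and 49.2, 53.5 and 55.6 CPM in the CPSF1 sh2 libraries. Its knockdown libraries lay just below CTRL sh, a fall of -0.23 ± 0.06 (SE, adjusted p = 0.00387). In 22Rv1, where CTRL sh was lowest, the libraries held 9.56, 7.89 and 7.3 CPM in the CTRL sh, 23.9, 24.9 and 27.7 CPM in the CPSF1 sh1 and 38, 41.1 and 37.5 CPM in the CPSF1 sh2 libraries, and the rise was 1.95 ± 0.20 (SE, adjusted p = 2.07e-05). The annotated HIST1H1C model ends 4 bases after its stem-loop, so its counts came from the transcript up to that point.

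Of the H2A genes, which encode a core histone that pairs with H2B, HIST1H2AC, HIST1H2AG and HIST3H2A were tested in all 3 lines. HIST1H2AC (chromosome 6, 26124373 to 26139344, plus strand) is annotated with exons that extend 14432 bases past its stem-loop. It held 26.5, 23.1 and 22.5 CPM in the CTRL sh, 56.7, 58.7 and 52 CPM in the CPSF1 sh1 and 47.3, 40.1 and 41.4 CPM in the CPSF1 sh2 libraries in LNCaP, and no knockdown library overlapped CTRL sh. In LNCaP95 it held 25.9, 27.8 and 25.1 CPM in the CTRL sh, 21.7, 23.6 and 20.2 CPM in the CPSF1 sh1 and 29.3, 26.8 and 24.6 CPM in the CPSF1 sh2 libraries. CPSF1 sh1 libraries were below CTRL sh and CPSF1 sh2 libraries overlapped it, so the pooled change of -0.11 ± 0.10 (SE, adjusted p = 0.352) did not pass, while CPSF1 sh1 alone gave -0.26 (adjusted p = 0.00819). The 22Rv1 libraries held 4.28, 4.77 and 5.18 CPM in the CTRL sh, 8.48, 8.36 and 7.5 CPM in the CPSF1 sh1 and 11.6, 12.4 and 11.9 CPM in the CPSF1 sh2 libraries, a rise of 1.09 ± 0.18 (SE, adjusted p = 0.000721) without overlap. The LNCaP rise of HIST1H2AC was 1.03 ± 0.12 (SE, adjusted p = 4.02e-06).

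HIST1H2AG (chromosome 6, 27100832 to 27103070, plus strand) was low. It held 5.16, 4.77 and 4.03 CPM in the CTRL sh, 6.47, 5.67 and 5.94 CPM in the CPSF1 sh1 and 5.67, 6.53 and 5.31 CPM in the CPSF1 sh2 libraries in LNCaP. The knockdown libraries stood just above CTRL sh, a rise of 0.35 ± 0.13 (SE, adjusted p = 0.0253). In LNCaP95 the values were 3.76, 3.59 and 4.61 CPM in the CTRL sh, 3, 3.69 and 2.78 CPM in the CPSF1 sh1 and 2.42, 3.46 and 3.82 CPM in the CPSF1 sh2 libraries. These groups overlapped and HIST1H2AG gave -0.31 ± 0.16 (SE, adjusted p = 0.106). In 22Rv1 they were 4.28, 3.67 and 3.81 CPM in the CTRL sh, 5.81, 8.27 and 5.16 CPM in the CPSF1 sh1 and 6.42, 6.69 and 6.84 CPM in the CPSF1 sh2 libraries, with no overlap and a rise of 0.73 ± 0.15 (SE, adjusted p = 0.00342).

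HIST3H2A (chromosome 1, 228645065 to 228645560, minus strand, 496 bases), in the HIST3 cluster, is annotated to end 5 bases after its stem-loop. LNCaP libraries held 19.5, 18.6 and 18.2 CPM in the CTRL sh, 26.2, 26.3 and 24.5 CPM in the CPSF1 sh1 and 28.5, 25 and 26.6 CPM in the CPSF1 sh2 libraries. Its rise there, 0.48 ± 0.07 (SE, adjusted p = 2.8e-05), was small but the groups did not overlap. LNCaP95 libraries held 15.6, 15.8 and 13.5 CPM in the CTRL sh, 15.8, 15.3 and 15.3 CPM in the CPSF1 sh1 and 14.9, 16.6 and 16.9 CPM in the CPSF1 sh2 libraries, which overlapped, and HIST3H2A gave 0.07 ± 0.08 (SE, adjusted p = 0.462). In 22Rv1 it held 12.1, 12.8 and 10.7 CPM in the CTRL sh, 16.1, 18 and 21.9 CPM in the CPSF1 sh1 and 21.9, 24.9 and 19.2 CPM in the CPSF1 sh2 libraries, all knockdown libraries being above CTRL sh, a rise of 0.77 ± 0.13 (SE, adjusted p = 0.000739).

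HIST1H2AE (chromosome 6, 26217165 to 26217711, plus strand) was tested in LNCaP95, where it held 8.17, 7.55 and 8.73 CPM in the CTRL sh, 3.24, 4.44 and 2.7 CPM in the CPSF1 sh1 and 3.25, 2.8 and 2.82 CPM in the CPSF1 sh2 libraries. Every CTRL sh library was above every knockdown library, and HIST1H2AE fell by 1.33 on the log2 scale. It stayed under the filter in LNCaP, with 1.22, 1.34 and 1.67 CPM in the CTRL sh, 2.64, 2.43 and 1.95 CPM in the CPSF1 sh1 and 2.21, 1.69 and 1.74 CPM in the CPSF1 sh2 libraries, and in 22Rv1, with 0.247, 0.0917 and 0 CPM in the CTRL sh, 0.553, 1.05 and 1.07 CPM in the CPSF1 sh1 and 0.452, 0.418 and 0.74 CPM in the CPSF1 sh2 libraries. HIST1H2AI, an H2A gene that shares 56.5% of its windows with another member, rose in LNCaP by 0.87 ± 0.19 (SE, adjusted p = 0.000892) from 2.38 ± 0.13 CPM (SD, n = 3) in CTRL sh to 5.1 ± 0.514 and 3.7 ± 0.484 CPM with the hairpins.

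H2B genes were the largest class among the tested members. HIST2H2BE (chromosome 1, 149856010 to 149858232, minus strand, 2223 bases) is annotated to run 1728 bases past its stem-loop. LNCaP libraries held 40.7, 38.9 and 40.2 CPM in the CTRL sh, 153, 158 and 146 CPM in the CPSF1 sh1 and 112, 117 and 111 CPM in the CPSF1 sh2 libraries. The knockdown libraries were far above CTRL sh, those of CPSF1 sh1 above those of CPSF1 sh2. LNCaP95 libraries held 67.1, 59.7 and 68.8 CPM in the CTRL sh, 49.1, 53.6 and 52 CPM in the CPSF1 sh1 and 54.1, 52.5 and 53.1 CPM in the CPSF1 sh2 libraries, all knockdown libraries below CTRL sh, and HIST2H2BE fell there at -0.32 ± 0.06 (SE, adjusted p = 0.000304). The 22Rv1 libraries held 12.7, 15.9 and 15.2 CPM in the CTRL sh, 43, 41.2 and 41.2 CPM in the CPSF1 sh1 and 54.8, 59.5 and 58.1 CPM in the CPSF1 sh2 libraries. In this line the libraries of CPSF1 sh2 were the higher ones, and all 6 were above CTRL sh.

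HIST1H2BK (chromosome 6, 27106073 to 27114619, minus strand), whose model runs 8072 bases past its stem-loop, rose in all 3 lines. It held 37.8, 34.8 and 32.5 CPM in the CTRL sh, 84.6, 83.6 and 78.8 CPM in the CPSF1 sh1 and 76.8, 71.7 and 73.4 CPM in the CPSF1 sh2 libraries in LNCaP. LNCaP95 libraries held 22.7, 22.6 and 22.5 CPM in the CTRL sh, 32.1, 32.2 and 33.8 CPM in the CPSF1 sh1 and 42.5, 49.5 and 45.3 CPM in the CPSF1 sh2 libraries. In 22Rv1 it held 8.73, 11.5 and 8.99 CPM in the CTRL sh, 18.5, 20.3 and 21.7 CPM in the CPSF1 sh1 and 24.2, 33.2 and 28.1 CPM in the CPSF1 sh2 libraries. CTRL sh and knockdown libraries did not overlap in any line, and the log2 fold changes of HIST1H2BK in LNCaP, LNCaP95 and 22Rv1 were 1.15 ± 0.07 (SE, adjusted p = 2.96e-09), 0.79 and 1.32.

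HIST1H2BD (chromosome 6, 26158349 to 26171577, plus strand) changed in opposite directions in LNCaP and LNCaP95. LNCaP libraries held 13.2, 11.2 and 11.5 CPM in the CTRL sh, 25.2, 22.3 and 20.4 CPM in the CPSF1 sh1 and 16, 15.9 and 14.6 CPM in the CPSF1 sh2 libraries, a rise of 0.66 ± 0.16 (SE, adjusted p = 0.00241). In LNCaP95 they held 38.3, 32.2 and 41.5 CPM in the CTRL sh, 19.4, 21.3 and 17.4 CPM in the CPSF1 sh1 and 15.7, 12.8 and 14.6 CPM in the CPSF1 sh2 libraries. Here every CTRL sh library was well above every knockdown library. The 22Rv1 libraries held 2.55, 2.29 and 2.01 CPM in the CTRL sh, 5.44, 4.66 and 6.04 CPM in the CPSF1 sh1 and 8.32, 8.36 and 9.62 CPM in the CPSF1 sh2 libraries, with the knockdown libraries above CTRL sh. HIST1H2BD entered no main test in 22Rv1, since CTRL sh replicate 3 stood at 1.98 CPM of its total counts, just under the filter.

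HIST2H2BF (chromosome 1, 149754245 to 149783928, minus strand), annotated to run 29195 bases past its stem-loop, rose in LNCaP and LNCaP95. It held 3.38, 3.6 and 2.1 CPM in the CTRL sh, 7.07, 7.74 and 6.33 CPM in the CPSF1 sh1 and 4.43, 5.07 and 4.73 CPM in the CPSF1 sh2 libraries in LNCaP, a rise of 0.94 ± 0.22 (SE, adjusted p = 0.00154). LNCaP95 libraries held 3.91, 2.25 and 2.45 CPM in the CTRL sh, 5.56, 4.51 and 4.55 CPM in the CPSF1 sh1 and 5.39, 5.6 and 4.18 CPM in the CPSF1 sh2 libraries. In 22Rv1 the values were 0.33, 0.367 and 0.529 CPM in the CTRL sh, 1.66, 2 and 1.46 CPM in the CPSF1 sh1 and 2.8, 3.14 and 3.7 CPM in the CPSF1 sh2 libraries, below the filter. HIST1H2BF (chromosome 6, 26199748 to 26200942, plus strand) had no matched stop codon. It held 13, 13.7 and 14 CPM in the CTRL sh, 5.62, 6.36 and 4.94 CPM in the CPSF1 sh1 and 3.16, 4.28 and 3.45 CPM in the CPSF1 sh2 libraries in LNCaP95, the strongest fall of any tested member, with no overlap. LNCaP libraries held 1.97, 1.84 and 1.05 CPM in the CTRL sh, 3.71, 5.67 and 5.16 CPM in the CPSF1 sh1 and 4.69, 4.11 and 3.4 CPM in the CPSF1 sh2 libraries, and 22Rv1 libraries 0.741, 0.825 and 0.741 CPM in the CTRL sh, 2.03, 0.95 and 1.66 CPM in the CPSF1 sh1 and 2.8, 2.82 and 2.13 CPM in the CPSF1 sh2 libraries, both under the filter and with knockdown libraries on the higher side.

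Of the other tested H2B genes, HIST1H2BC rose in LNCaP (1.20 ± 0.19 (SE, adjusted p = 8.38e-05)) and fell in LNCaP95 (-0.79 ± 0.13 (SE, adjusted p = 0.000136)), from 4.43 ± 0.475 CPM (SD, n = 3) and 5.81 ± 0.729 CPM in CTRL sh. HIST1H2BN likewise rose in LNCaP (0.52 ± 0.15 (SE, adjusted p = 0.00809)) and fell in LNCaP95 (-0.60 ± 0.12 (SE, adjusted p = 0.000587)); without LNCaP CTRL sh replicate 3 its rise missed the threshold (0.41, adjusted p = 0.0566). HIST1H2BL was tested in LNCaP alone and rose (0.69 ± 0.17 (SE, adjusted p = 0.00282)). HIST1H2BG and HIST1H2BJ, tested in LNCaP95 alone, gave -0.21 ± 0.14 (SE, adjusted p = 0.204) and -0.01 ± 0.15 (SE, adjusted p = 0.944), neither past the threshold, although HIST1H2BG passed with CPSF1 sh2 alone (-0.41, adjusted p = 0.0151).

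H3 and H4 genes encode the histones that form the central tetramer of the nucleosome. HIST1H3H was the H3 gene tested in 2 lines, rising in LNCaP (0.85 ± 0.14 (SE, adjusted p = 9.2e-05)) and falling in LNCaP95 (-0.55 ± 0.17 (SE, adjusted p = 0.0115)). Its LNCaP95 libraries held 9.33, 6.38 and 7.06 CPM in the CTRL sh, 6.17, 6.01 and 5.79 CPM in the CPSF1 sh1 and 3.72, 4.69 and 4.64 CPM in the CPSF1 sh2 libraries, and without CTRL sh replicate 1 the fall no longer passed (-0.36, adjusted p = 0.117). HIST1H3E in LNCaP held 5.47 ± 0.0473 CPM (SD, n = 3) in the CTRL sh, 5.34 ± 0.983 CPM in the CPSF1 sh1 and 4.83 ± 1.44 CPM in the CPSF1 sh2 libraries.

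HIST1H4H (chromosome 6, 26281283 to 26285762, minus strand), the only H4 gene tested, is annotated to run 4076 bases past its stem-loop. LNCaP libraries held 7.88, 7.29 and 8.16 CPM in the CTRL sh, 21.7, 23 and 21.5 CPM in the CPSF1 sh1 and 18.2, 17.3 and 16.6 CPM in the CPSF1 sh2 libraries, without overlap. In LNCaP95, where it was the highest member, it held 139, 137 and 129.9 CPM in the CTRL sh, 123, 126 and 112 CPM in the CPSF1 sh1 and 100.01, 109 and 92.6 CPM in the CPSF1 sh2 libraries. All knockdown libraries were below CTRL sh, those of CPSF1 sh2 lowest, a fall of -0.29 ± 0.08 (SE, adjusted p = 0.00857). The 22Rv1 libraries held 0.741, 1.1 and 0.846 CPM in the CTRL sh, 2.58, 2.19 and 2.14 CPM in the CPSF1 sh1 and 2.53, 2.61 and 4.72 CPM in the CPSF1 sh2 libraries, again without overlap but below the filter. Without HIST1H4H, the summed level of the other members changed by -0.27 on the log2 scale in LNCaP95.

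**Figure D4:**
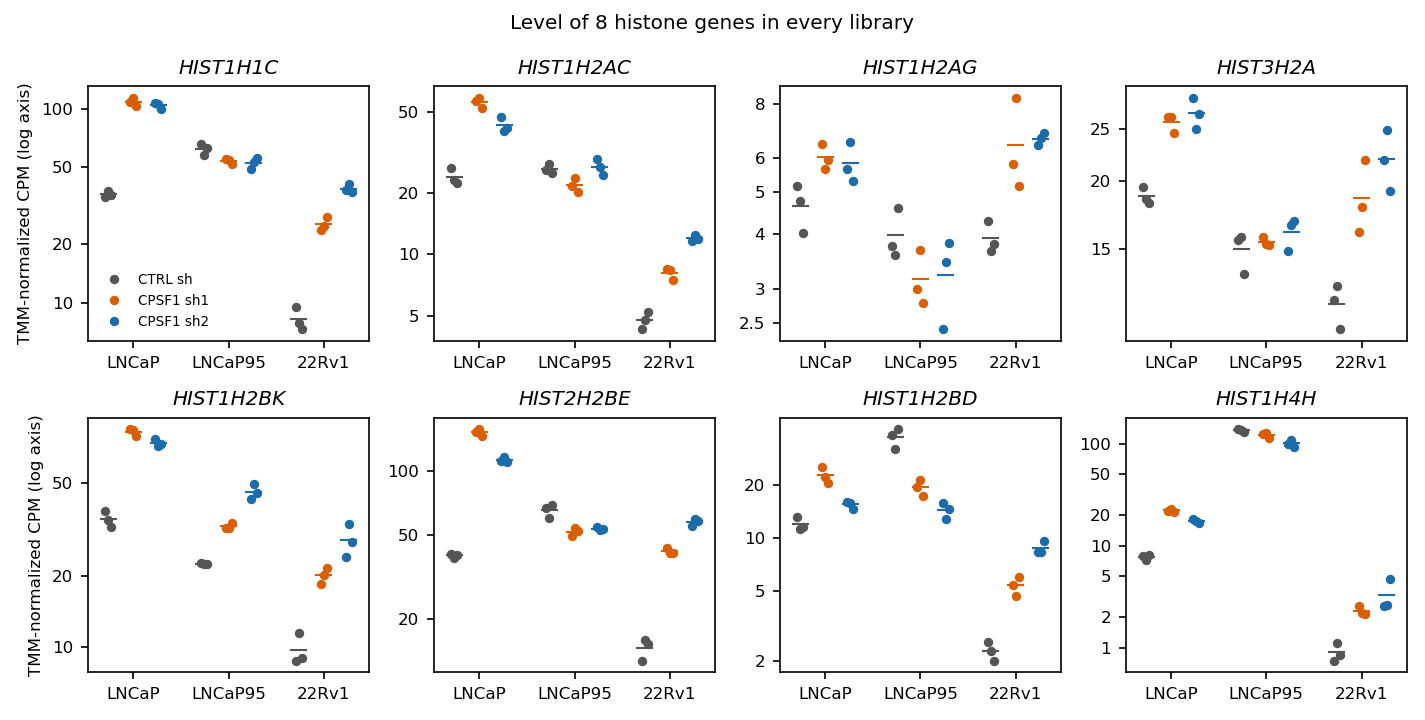
Level of 8 histone genes in each of the 27 libraries, in TMM-normalized CPM on a log axis, with the cell lines along the horizontal axis, a point per library and a line at each group mean. CPSF1 sh points sit above CTRL sh in LNCaP and 22Rv1 in all panels, whereas HIST1H2BK alone of the 8 sits clearly above CTRL sh in LNCaP95.

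Within HIST1, the largest LNCaP95 falls lay next to each other. The 9 consecutive members from HIST1H2BD to HIST1H2AE (chromosome 6, 26158349 to 26217711), a stretch chosen after its values were seen and therefore given without a test, summed to 87 ± 7.0 CPM (SD, n = 3) in the LNCaP95 CTRL sh, 45.2 ± 4.50 CPM in the CPSF1 sh1 and 33.6 ± 1.47 CPM in the CPSF1 sh2 libraries. The log2 ratio was -1.14, while the other 46 HIST1 genes gave -0.12. In LNCaP and 22Rv1 the stretch was higher after knockdown, by 0.92 and 1.53 on the log2 scale, against 1.18 and 1.36 for the other HIST1 genes. With filterByExpr, edgeR's own low-count filter that also keeps genes expressed in the smallest group only, HIST1H3D (-1.82), HIST1H2BF (-1.56), HIST1H4E (-1.42), HIST1H2AE (-1.37) and HIST1H2BD (-1.17) fell in LNCaP95, and HIST1H2BG gave -0.25 (adjusted p = 0.139). The other 3 genes of the stretch were hardly counted in LNCaP95, and HIST1H2BE went the other way, with 0 counts in the CTRL sh and 3 to 10 in the knockdown libraries. HIST1H4D had 5 to 11 and 2 to 6 counts, and HIST1H2AD 4 in each CTRL sh and 0 to 2 in the knockdown libraries. HIST1H3D shares same-strand exon sequence with HIST1H2AD.

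**Figure D5:**
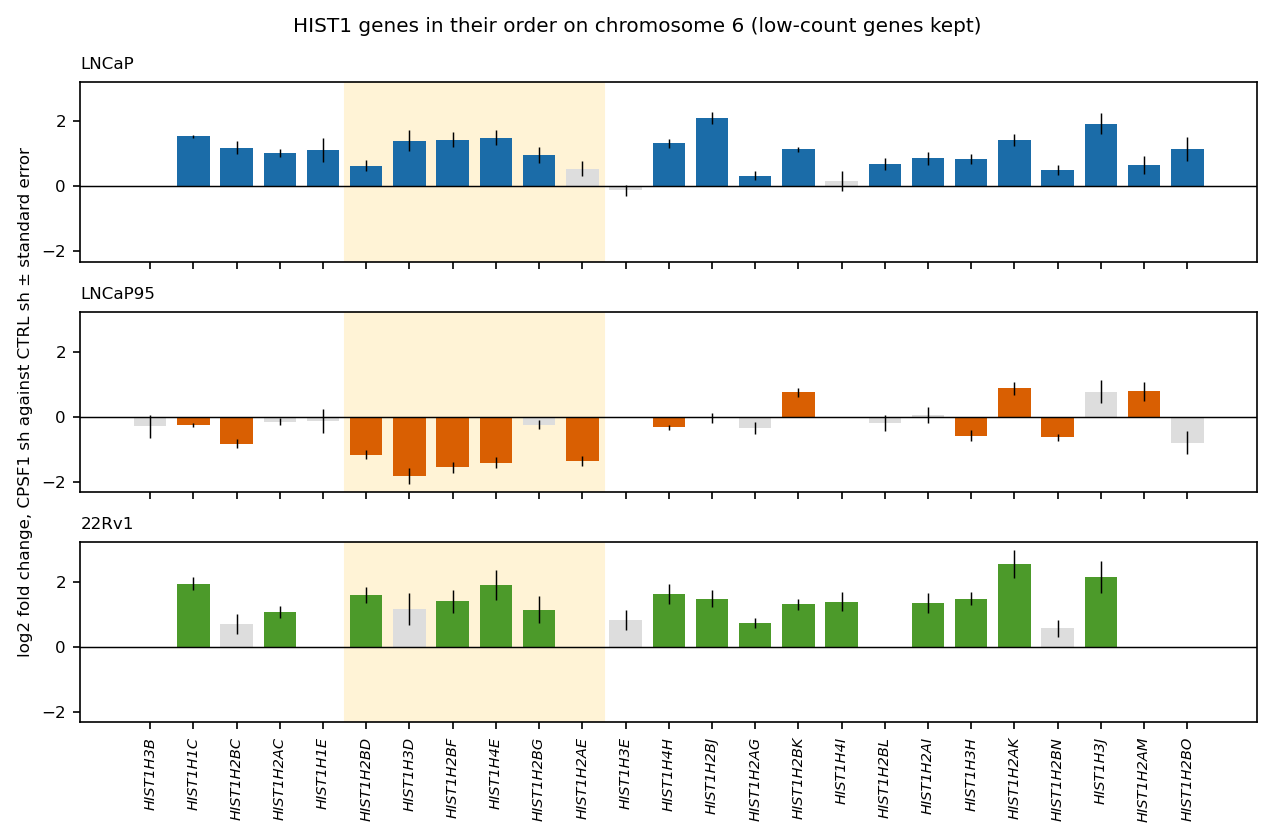
Log2 fold change of CPSF1 sh against CTRL sh with its standard error for the HIST1 genes kept by filterByExpr, in their order along chromosome 6, one panel per line. Coloured bars passed an adjusted p below 0.05. The kept genes of the shaded stretch from HIST1H2BD to HIST1H2AE point down in LNCaP95 and up in LNCaP and 22Rv1. In 22Rv1, HIST1H3D, HIST1H2BF, HIST1H4E and HIST1H2BG met the filter through knockdown libraries alone, as did HIST1H4E in LNCaP. The filter itself favoured an upward bar for these genes.

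With filterByExpr, 33 members entered the fit in LNCaP, 29 in LNCaP95 and 25 in 22Rv1. Of them 26 rose and 2 fell in LNCaP (31.0% and 30.9% of all genes tested with this filter), 4 rose and 12 fell in LNCaP95 (33.3% and 33.2%), and 20 rose and 1 fell in 22Rv1 (13.5% and 14.3%). Since this filter can keep a gene through the group in which it is high, these counts are a description. Only 23, 23 and 11 of these members met its minimum in at least 3 CTRL sh and in at least 3 knockdown libraries, of which 21, 3 and 9 rose and 0, 12 and 1 fell in LNCaP, LNCaP95 and 22Rv1. The members it added were 18 in LNCaP, of which 12 rose and 2 fell, 13 in LNCaP95 with 2 and 3, and 19 in 22Rv1 with 14 and 1.

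HIST1H3D, HIST1H2AK and HIST1H4E had the highest mean level of the 52 members that passed the main filter in no line, at 3.26, 3.05 and 2.21 CPM over the 27 libraries. HIST1H3D ranged from 0.275 to 13.8 CPM between libraries, HIST1H2AK from 0.165 to 7.74 CPM and HIST1H4E from 0.275 to 5.64 CPM. HIST1H2AK, an H2A gene with a stem-loop sequence found in no other member, rose with filterByExpr in LNCaP, giving 1.43 ± 0.19 (SE, adjusted p = 1.69e-05), and LNCaP95, giving 0.87 ± 0.21 (SE, adjusted p = 0.00315). Its 22Rv1 CTRL sh libraries held 2, 3 and 4 counts and its 22Rv1 knockdown libraries 8 to 23, so it entered that fit through the knockdown libraries alone and no test is given. HIST1H3D rose in LNCaP (1.41, adjusted p = 0.00145). HIST1H4E met the minimum of filterByExpr through the knockdown libraries alone in LNCaP, with 9 to 20 counts in CTRL sh and 33 to 43 after knockdown, and in 22Rv1, with 3 to 6 and 7 to 24 counts. Over the members without a main test that had a count, 49 in LNCaP, 46 in LNCaP95 and 55 in 22Rv1, all 6 knockdown libraries were above CTRL sh for 18, 5 and 19, against 15.7%, 22.4% and 10.5% of all such genes, and below it for 1, 5 and 1, against 6.42%, 3.12% and 3.28%.

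HIST2H2AC and HIST2H3PS2, named after their values were seen, were the members called lower with filterByExpr in LNCaP, and both met its minimum there through CTRL sh alone. HIST2H2AC, an H2A gene, held 1.2 ± 0.225 CPM (SD, n = 3) in LNCaP CTRL sh against 0.717 ± 0.356 and 0.528 ± 0.31 CPM with the hairpins. In the other lines it met the minimum in both groups and gave -0.98 ± 0.33 (SE, adjusted p = 0.018) in LNCaP95 and -0.75 ± 0.23 (SE, adjusted p = 0.0223) in 22Rv1, where it was the member that fell. HIST2H3PS2 had 13 to 20 counts in the LNCaP CTRL sh and 3 to 7 in the LNCaP knockdown libraries, and 0 counts in all libraries of LNCaP95 and 22Rv1.

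The annotated end of a gene decides which histone transcripts can be counted. For 18 members the model runs more than 100 bases past the stem-loop, and for 50 it ends within 100 bases of it. The first kind was tested more often, with 9 members in LNCaP, 10 in LNCaP95 and 4 in 22Rv1, of which 9 rose in LNCaP, 2 rose and 5 fell in LNCaP95, and 4 rose in 22Rv1. Of the second kind 6, 4 and 2 were tested, with 5 rises in LNCaP, 3 falls in LNCaP95 and 2 rises in 22Rv1. Rises made up 31.1% (LNCaP), 33.2% (LNCaP95) and 12.7% (22Rv1) of every gene tested, while falls took 31.0%, 33.7% and 14.3%. With so few genes tested, the counts of the second kind are a description. The summed level moved in the same direction in both kinds, by 1.28, -0.24 and 1.45 on the log2 scale for the first and 1.10, -0.26 and 1.22 for the second in LNCaP, LNCaP95 and 22Rv1. Whether a given fragment came from an RNA cut at the stem-loop or from a longer one was not tested.

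The difference of the knockdown effect between lines was tested as an interaction over all 27 libraries, in which 6 histone genes passed the filter. Against LNCaP, the effect in LNCaP95 was lower for 5 of the 6 and higher for 0, where 24.1% and 26.7% of all tested genes were lower and higher. HIST2H2BE differed by -2.03 ± 0.16 (SE, adjusted p = 2.91e-11), HIST1H1C by -1.76 ± 0.15 (SE, adjusted p = 6.01e-11), HIST1H2AC by -1.13 ± 0.18 (SE, adjusted p = 4.93e-06), HIST1H2AG by -0.64 ± 0.21 (SE, adjusted p = 0.0105) and HIST3H2A by -0.39 ± 0.13 (SE, adjusted p = 0.0155) on the log2 scale. HIST3H2A passed neither with library size alone (adjusted p = 0.0501) nor without LNCaP95 CTRL sh replicate 1 (adjusted p = 0.0512). HIST1H2BK, which rose in both lines, gave -0.35 ± 0.19 (SE, adjusted p = 0.123).

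The effect in 22Rv1 was higher than in LNCaP95 for all 6 genes, where 26.6% of all tested genes were higher and 27.1% lower, by 2.17 for HIST1H1C, 2.08 for HIST2H2BE, 1.20 for HIST1H2AC, 1.03 for HIST1H2AG, 0.69 for HIST3H2A and 0.53 for HIST1H2BK. The call of HIST1H2BK (adjusted p = 0.0484) was lost with library size alone (0.0809), with replicate numbers as a block (0.062) and when single libraries were left out. Between 22Rv1 and LNCaP, 0 of the 6 genes passed in edgeR in either direction, where 20.4% of all tested genes were higher and 20.0% lower; 2 had an unadjusted p below 0.05, and DESeq2 called 1. The differences ranged from 0.05 ± 0.19 (SE, adjusted p = 0.849) for HIST2H2BE to 0.41 ± 0.19 (SE, adjusted p = 0.0824) for HIST1H1C.

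The hairpins did not move the histone genes equally. In LNCaP, 8 of 15 genes were lower with CPSF1 sh2 than with CPSF1 sh1 and 0 higher, where 8.24% of all tested genes were lower and 6.53% higher, among them HIST2H2BE at -0.43 ± 0.04 (SE, adjusted p = 5.85e-07) and HIST1H2BD at -0.54 ± 0.10 (SE, adjusted p = 0.000702). HIST1H1C, at -0.06 ± 0.05 (SE, adjusted p = 0.449), did not pass. In 22Rv1, 4 of 6 genes were higher with CPSF1 sh2 and 0 lower, where 5.47% and 5.85% of all tested genes were, led by HIST1H1C at 0.61 ± 0.08 (SE, adjusted p = 0.000363) and HIST1H2AC at 0.56 ± 0.11 (SE, adjusted p = 0.00417). In LNCaP95, 3 of 16 were higher and 6 lower, near the 16.5% and 17.7% of all tested genes for the first; HIST1H2BK was higher at 0.49 ± 0.07 (SE, adjusted p = 1.17e-05) and HIST1H2BF lower at -0.63 ± 0.16 (SE, adjusted p = 0.00389). DESeq2 called 2 higher and 3 lower there, and without CPSF1 sh2 replicate 1 edgeR called 1 and 3. The summed histone level reflected these splits, with log2 ratios to CTRL sh of 1.34 for CPSF1 sh1 and 1.08 for CPSF1 sh2 in LNCaP, -0.25 and -0.30 in LNCaP95, and 1.10 for CPSF1 sh1 and 1.57 for CPSF1 sh2 in 22Rv1. Both hairpin groups are set against the same CTRL sh libraries.

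Without knockdown, the lines differed widely in histone RNA. Scaled together, the CTRL sh libraries summed to 238 ± 9.38 CPM (SD, n = 3) in LNCaP, 464 ± 17.7 CPM in LNCaP95 and 77.8 ± 2.62 CPM in 22Rv1, so that LNCaP95 was highest and 22Rv1 lowest. HIST1H4H, which made up more of the difference between LNCaP95 and LNCaP than of that between either and 22Rv1, stood at 7.92 ± 0.463 CPM in LNCaP, 134 ± 4.42 CPM in LNCaP95 and 0.9 ± 0.186 CPM in 22Rv1. Of the 6 genes above the filter in these 9 libraries, 2 were higher and 2 lower in LNCaP95 than in LNCaP, where 40.1% of all tested genes were higher and 40.4% lower. HIST1H1C (0.74 ± 0.07 (SE, adjusted p = 4.8e-10)) and HIST2H2BE (0.67 ± 0.07 (SE, adjusted p = 2.22e-09)) were higher, HIST1H2BK (-0.67 ± 0.08 (SE, adjusted p = 1.01e-07)) and HIST3H2A (-0.36 ± 0.09 (SE, adjusted p = 0.00137)) lower. In 22Rv1 CTRL sh, 5 of the 6 were lower than in LNCaP (42.6% of all tested genes lower, 40.0% higher) and 5 lower than in LNCaP95 (42.5% lower, 42.1% higher), HIST1H1C by 2.15 and 2.89 on the log2 scale. HIST1H2AG was the exception in both, at -0.26 ± 0.16 (SE, adjusted p = 0.151) against LNCaP and 0.01 ± 0.17 (SE, adjusted p = 0.954) against LNCaP95.

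Per length of the annotated exons, the members ranked differently in each line. In RPKM, the CPM divided by the exon length in units of 1000 bases, LNCaP CTRL sh held 50.6 for HIST1H1C, 43.5 for HIST1H2BK, 38.6 for HIST3H2A and 18.3 for HIST2H2BE. LNCaP95 held 129.5 for HIST1H4H and 84.5 for HIST1H1C, followed by 41.2 for HIST1H2BD, and 30.0, 29.1 and 27.3 for HIST3H2A, HIST2H2BE and HIST1H2BK. In 22Rv1 the highest of these was HIST3H2A at 24.1, followed by HIST1H2BK at 11.9 and HIST1H1C at 11.3 RPKM. Neighbours in these orders were not tested against each other, and exon length counts the annotated stretch past the stem-loop.

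Genes that make, process or use histone mRNA were read from the same fits. Of 21 histone mRNA processing factors, 20 were tested in each line, of which LNCaP had 6 that rose and 4 that fell, LNCaP95 6 and 7, and 22Rv1 2 and 4, close to the shares of all tested genes that rose and fell (31.1% and 31.0%, 33.2% and 33.7%, 12.7% and 14.3%), with median log2 fold changes of 0.05, 0.02 and -0.02. SLBP, which binds the stem-loop and was named outside the naming rule with its values known, gave, in LNCaP, LNCaP95 and 22Rv1, 0.03 (adjusted p = 0.569), -0.14 (adjusted p = 0.0434) and -0.15 (adjusted p = 0.0204). LSM11, a protein of the U7 particle, fell in all 3 lines, with -0.37 (adjusted p = 0.00212), -0.48 (adjusted p = 0.00241) and -0.57 (adjusted p = 0.000146). ZCCHC6, an enzyme that adds uridines to RNA ends, changed in all 3, with 0.45 (adjusted p = 2.39e-06), -0.17 (adjusted p = 0.0339) and 0.35 (adjusted p = 0.0406), and was thus lower in LNCaP95 and higher in the others.

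S phase genes moved in another pattern than the histone genes. Of 20 such genes 19 were tested, of which 10 rose and 2 fell in LNCaP, 18 rose and 1 fell in LNCaP95, and 0 rose and 6 fell in 22Rv1 in edgeR (0 higher also at an unadjusted p below 0.05 and in DESeq2), with median log2 fold changes of 0.14, 0.78 and -0.08. The shares of all tested genes that rose and fell were 31.1% and 31.0% for LNCaP, 33.2% and 33.7% for LNCaP95 and 12.7% and 14.3% for 22Rv1. The S phase list was thus highest where the summed histone level was lower, in LNCaP95, and did not rise in 22Rv1, where the histone sum was higher; the part of cell cycle in the histone values was not tested. GINS2, a subunit of the replicative helicase, gave, in LNCaP, LNCaP95 and 22Rv1, -0.16 (adjusted p = 0.0267), 0.35 (adjusted p = 0.00202) and -0.39 (adjusted p = 0.000721). RRM1, which makes deoxynucleotides, fell in all 3 lines, with -0.16 (adjusted p = 0.00209), -0.12 (adjusted p = 0.0205) and -0.32 (adjusted p = 0.00049).

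All 13 histone chaperones, which carry histones to and from DNA, were tested. In LNCaP 4 rose and 3 fell, in LNCaP95 11 rose and 0 fell, and in 22Rv1 1 rose and 3 fell, with medians of 0.02, 0.23 and -0.08. Set against the same shares of all tested genes, the LNCaP counts were no higher than the background (31.1% and 31.0%), and the LNCaP95 rises stood against 33.2%. ASF1B, a chaperone of new H3 and H4, gave 0.21 (adjusted p = 0.0133), 0.61 (adjusted p = 9.1e-06) and -0.25 (adjusted p = 0.00654). Of 12 genes listed as replication-independent histones, 11 were tested in LNCaP, where 2 rose and 5 fell, 10 in LNCaP95, where 3 rose and 3 fell, and 10 in 22Rv1, where 0 passed in edgeR in either direction (0 also with an unadjusted p below 0.05 and in DESeq2), with medians of -0.03, 0.03 and 0.04. H2AFJ, an H2A variant, went from 48.3 ± 2.65 CPM (SD, n = 3) to 22.2 ± 3.24 CPM (SD, n = 6) in LNCaP, at -1.13 (adjusted p = 1.08e-07), and had a mean of at most 0.0158 CPM in the groups of the other lines. H2AFY2, which encodes a macroH2A, gave, in LNCaP, LNCaP95 and 22Rv1, -0.69 (adjusted p = 1.96e-08), 0.79 (adjusted p = 0.000509) and 0.10 (adjusted p = 0.262).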

How the data were processed

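Fragments of 27 stranded, poly(A)-selected libraries were aligned to GRCh37 with HISAT2 2.1.0 and counted on exons of Ensembl genes with featureCounts, and the authors deposited raw counts per protein-coding symbol. The Subread version differs between the sources (2.0.3 in the submitters' processing notes). The 71 members and all gene lists were chosen with earlier results of these data known. Separate models for each line used edgeR 4.0.16 under R 4.3.3 (TMM, legacy quasi-likelihood F-test, 3 CTRL sh against 6 CPSF1 sh libraries), keeping genes over 2 CPM of total counts in every library. P-values were Benjamini-Hochberg adjusted over all genes tested, with a threshold of 0.05. Interactions used all 27 libraries and line levels the 9 CTRL sh libraries. Sums are the members' CPM added up, without a test. Named were CPSF1, members that passed the filter in a line, in every library those tested in all 3 lines and the 3 largest changes per direction, the 3 highest of the rest, and list genes called in all 3 lines or the 2 largest changes. Stem-loops were read from GRCh37 at the stop codons of the GENCODE annotation. The fits were tested on simulated data. Alternatives included DESeq2 1.42.0, other filters and scalings, single hairpins and leaving out libraries. With 8515624 to 15904518 counts per library, 1 CPM is worth 8.52 to 15.9 counts.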

Additional observations from a re-analysis of the deposited data

Results flagged for a closer look

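The knockdown effect on 5 histone genes differed between LNCaP95 and LNCaP by the interaction test in edgeR over 27 libraries. The difference, LNCaP95 minus LNCaP on the log2 scale, was -2.03 for HIST2H2BE, -1.76 for HIST1H1C, -1.13 for HIST1H2AC, -0.64 for HIST1H2AG and -0.39 for HIST3H2A. HIST2H2BE and HIST1H1C were below CTRL sh in all 6 LNCaP95 knockdown libraries and above it in all 6 of LNCaP. Of all genes tested, 24.1% had a lower and 26.7% a higher effect in LNCaP95. The call of HIST3H2A was lost with library size alone and without LNCaP95 CTRL sh replicate 1.

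Between 22Rv1 and LNCaP95 the effect differed for 6 genes by the same test. The difference, 22Rv1 minus LNCaP95, was 2.17 for HIST1H1C, 2.08 for HIST2H2BE, 1.20 for HIST1H2AC, 1.03 for HIST1H2AG, 0.69 for HIST3H2A and 0.53 for HIST1H2BK. Of all genes tested, 26.6% had a higher and 27.1% a lower effect in 22Rv1. The call of HIST1H2BK was lost with library size alone, with the replicate block and when single libraries were left out.

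The summed histone level was lower in every LNCaP95 knockdown library and higher in every LNCaP and 22Rv1 knockdown library than in any CTRL sh library of the line, with LNCaP95 log2 ratios of -0.27 over all 71 genes, -0.30 for HIST1 and -0.23 for HIST2. The difference of these sums between lines was not tested. Without HIST2H2BE, the LNCaP95 ratio of HIST2 changed sign. Outside the stretch from HIST1H2BD to HIST1H2AE, which was chosen after its values were seen, the other 46 HIST1 genes gave -0.12 in LNCaP95.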

How the results depend on the processing

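With the low-count filter filterByExpr, which tests more genes, LNCaP had 26 histone genes higher and 2 lower, LNCaP95 4 and 12, and 22Rv1 20 and 1. The 22Rv1 median log2 fold change was 1.39. This filter can keep a gene through the group in which it is high, so these counts and the median are a description. Through knockdown libraries alone, 14 genes entered in 22Rv1, 11 of them called higher, and 7 in LNCaP, 5 of them called higher. Both genes called lower in LNCaP entered through CTRL sh alone. The same filter gave 9 of 25 genes higher with CPSF1 sh2 than with CPSF1 sh1 in 22Rv1 (5.39% of all genes tested). Of 33 genes it gave 18 with a lower effect in LNCaP95 than in LNCaP (20.7%), 5 with a higher effect in 22Rv1 than in LNCaP (16.6%) and 22 in 22Rv1 than in LNCaP95 (21.9%). Among CTRL sh libraries it gave, of 27 genes, 12 higher and 7 lower in LNCaP95 than in LNCaP (37.3% and 38.4%), 1 and 23 in 22Rv1 against LNCaP (42.7% and 40.8%), and 3 and 20 in 22Rv1 against LNCaP95 (44.6% and 40.9%). In the hairpin, effect and CTRL sh comparisons too, a gene could enter through the group or line in which it was high. Their counts are likewise a description. Without any filter, LNCaP had 30 genes higher and 2 lower, LNCaP95 9 and 14, and 22Rv1 21 and 1. The LNCaP median was then 1.04, and that of LNCaP95 turned from -0.30 to 0.033, more and lower genes being tested. At a fold of at least 2, 6 genes were higher in LNCaP, and 0 were higher and 3 lower in LNCaP95. The shares of all genes called without a filter and at this fold are not given, so both sets of counts are a description. DESeq2 called 3 genes lower with CPSF1 sh2 in LNCaP95 and 1 higher in 22Rv1 than in LNCaP for the knockdown effect; the cause was not tested.

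With 1 hairpin alone, the log2 ratio of the summed level was 1.34 (CPSF1 sh1) and 1.08 (CPSF1 sh2) in LNCaP and 1.10 and 1.57 in 22Rv1, that of HIST1 1.26 and 1.05 in LNCaP and 1.10 and 1.62 in 22Rv1, that of HIST2 1.79 and 1.35 in LNCaP and 1.32 and 1.77 in 22Rv1, and that of HIST4 1.41 and 0.99 in LNCaP and 0.82 with CPSF1 sh1 in 22Rv1. The median of the tested genes was 1.10 and 0.64 in LNCaP and 0.92 and 1.44 in 22Rv1, and -0.35 with CPSF1 sh2 in LNCaP95. A single hairpin with filterByExpr, an alternative added after seeing the data, gave 25 genes higher and 1 lower (CPSF1 sh1) and 23 and 2 (CPSF1 sh2) in LNCaP, 4 higher with either in LNCaP95, and 13 (CPSF1 sh1) and 21 with 1 lower (CPSF1 sh2) in 22Rv1. The LNCaP95 falls with a single hairpin are not listed, while both hairpins together gave 12 lower with this filter. It can keep a gene through the group in which it is high. The share of all genes called with a single hairpin is not given either, so these counts are a description. With library size alone, the LNCaP95 values were -0.19 for the sum, -0.22 for HIST1, -0.15 for HIST2, 0.20 for HIST3 and -0.21 for the median.

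Leaving out the member with the most counts changed the LNCaP sum to 1.08 and the 22Rv1 sum to 1.24, HIST1 to 1.02 and 1.21, HIST2 to 0.50 and 0.56 and, in LNCaP95, from -0.23 to 0.47, and HIST3 to 0.82 in LNCaP, 0.65 in LNCaP95 and 2.04 in 22Rv1. Leaving out HIST1H4H, also added after seeing the data, kept the direction of the sum in each line. With 1 library left out, the LNCaP median ranged from 0.82 to 0.94, the 22Rv1 sum from 1.29 to 1.41, its HIST1 part from 1.31 to 1.44 and the LNCaP HIST2 part from 1.53 to 1.64. The hairpin comparison in LNCaP95 then gave 1 to 3 genes higher and 3 to 6 lower, and the knockdown effect was higher in 22Rv1 than in LNCaP for 0 to 2 genes.

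Replicates with the same number correlated between -0.057 and 0.244 for LNCaP, -0.233 and 0.275 for LNCaP95 and -0.111 and 0.196 for 22Rv1, so the numbers were not taken to pair the libraries. With the replicate block, LNCaP had 14 genes higher, LNCaP95 2 higher and 9 lower, and 22Rv1 6 higher, as without it.

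For the named genes, 277 of 285 alternatives in LNCaP, 299 of 304 in LNCaP95 and all 114 in 22Rv1 kept the call. None reversed a called change. A change of sign without a call in either fit was not counted as a reversal. HIST1H2BJ in LNCaP95, for example, ranged from -0.089 to 0.063 with 1 library left out. Depth limits the other genes, 52 of 71 having passed the filter in no line, and the poly(A) capture and annotated gene ends limit which histone RNAs were counted.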
